A study of Homo sapiens with 2 samples.

Results

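The 10 genes described here, DKK1, NOTUM, APCDD1, LGR5, RNF43, ZNRF3, AXIN2, NKD1, SP5 and ASCL2, are direct targets or feedback regulators of canonical Wnt signalling. They were chosen by gene symbol, and all 10 were found among the 23709 symbols of the deposited table. Their RNA was measured in 2 libraries of Caco-2, a cell line from a human colorectal adenocarcinoma. The RNC-mRNA library was made from poly(A) RNA recovered with ribosome-nascent chain complexes, which are ribosomes carrying an unfinished protein, and the mRNA library from poly(A) RNA of total RNA. Cells for both were obtained from the same repository and were grown in DMEM with fetal bovine serum, penicillin, streptomycin and ciprofloxacin, with no other treatment named. The labels give neither a genotype nor whether both preparations came from the same dish. Each level has 1 library, so no p-value or SD is given and each difference describes this pair of libraries only.

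In Wnt signalling, secreted Wnt proteins bind Frizzled and LRP receptors, and the cytoplasmic destruction complex built on APC and Axin then stops degrading beta-catenin, which enters the nucleus and activates genes with TCF and LEF proteins. Many of those genes encode brakes on the same pathway, at the cell surface, in the cytoplasm or in the nucleus. In the intestinal crypt the pathway maintains stem cells, and in most colorectal cancers, and in Caco-2 cells, truncation of APC leaves it active without ligand.

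Levels are RPKM, reads scaled to the transcript's length and to the library's depth, so they can be compared between genes within a library. A gene's translation ratio divides its level in the RNC-mRNA library by its level in the mRNA library, taken as log2 after adding 0.1 RPKM to each, which slightly understates changes of weak genes. It is given relative to the median of the 13402 expressed genes (both libraries averaging 1 RPKM or more) and is called the relative ratio. The 10 genes all passed this filter, and the lowest of their 20 levels was the 5.84 RPKM of LGR5 in the mRNA library. The libraries were taken to hold 11083302 reads (RNC-mRNA) and 9640364 reads (mRNA), the smallest totals that the RPKM values bear out. Each of the 10 genes rested on at least 337 RNC-mRNA reads and 162 mRNA reads, the smallest numbers being those of LGR5. The 95% intervals given in brackets come from these reads and cover counting error only, not the spread between cultures.

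The sequence round the start codon is shown for the genes at both ends of the order of ratios, since it is where translation of each mRNA begins. The lines run 5′ to 3′, with the ATG in capitals, 12 bases before it and 7 after it, from GENCODE release 29 transcripts paired with the RefSeq records of the table.
DKK1: agtccttctgagATGatggctc
SP5: caagccgtagccATGgccgcgg
LGR5: acttcgggcaccATGgacacct
ZNRF3: cgccgcaggaccATGaggccgc
APCDD1: gcaggactggaaATGtcctggc
A purine stood at the position 3 bases before the ATG in 10 of the 10 genes, against 85.5% of 11185 expressed protein-coding records. A G directly after the ATG was found in 5 of the 10, against 52.8%. At least 1 further ATG lay in the annotated 5′ untranslated region of 8 of the 10, against 53.3%. That region was also longer, with a median of 312.5 bases in the 10 genes and 203 bases in all these records. DKK1 and NOTUM had 0 upstream ATGs and RNF43 had 15, in an annotated 5′ region of 721 bases. A relation of these features to the translation ratio was not tested.

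The letters CTTTGA, a form of the TCF/LEF core, or TCAAAG on the other strand, were looked up in RefSeq promoter windows. The windows ran from 250 bases before to 50 after the gene start (GRCh38.p14). Other forms of the core were not looked up, so a window without a match may still hold one. Windows were matched for 4 of the 10 genes, SP5, DKK1, RNF43 and APCDD1, and the letters occurred in those of SP5 and DKK1. Of 27305 genes with a window, 15.5% held them. The matches in DKK1 and SP5 are shown in capitals, and the windows shown are on the plus strand. Any relation of these letters to the translation ratio was not tested.
DKK1 chr10:52314120-52314149: gggtgaagagtgTCAAAGgccccccttcat
DKK1 chr10:52314174-52314203: cccctcccagcgCTTTGAaatcccatcccg
SP5 chr2:170715178-170715207: agctttgtggatTCAAAGgatttgctttcg
SP5 chr2:170715216-170715245: agagccgctattCTTTGAtgattgggtagc
SP5 chr2:170715242-170715271: tagcggcaaactTCAAAGccataaatcttc
The DKK1 matches begin 149 and 95 bases before the gene start, and those of SP5 begin 147, 109 and 83 bases before it. A match is a description of letters and not of binding, and LGR5, AXIN2, NKD1, NOTUM, ZNRF3 and ASCL2 are not analysed here in this respect.

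As a group the genes spanned both sides of the median, from the Wnt antagonist DKK1 at 1.96 to the Wnt inhibitor APCDD1 at -0.64. Of the 10 genes, 7 lay above the median of all expressed genes, AXIN2 by less than 0.01, and 3 lay below it; AXIN2 and NOTUM changed sides when the centre was placed otherwise. Their own median relative ratio was 0.27, against 0 by definition for all expressed genes and 0.03 for the 11940 expressed protein-coding records. Centred on genes averaging 10 RPKM or more, 0.12 higher, the median of the 10 was 0.15. The 10 genes were not compared with genes of like level. DKK1 and SP5 were at least 2-fold above the median of all expressed genes, a size that 1.37% of those genes reached. None of the 10 was at least 2-fold below, where 11.8% of all expressed genes lay. Of the 11940 expressed protein-coding records, the kind to which all 10 belong, 159 were at least 2-fold above and 1060 at least 2-fold below. At a line of 1.5-fold, LGR5 joined DKK1 and SP5 above it (7.44% of all expressed genes) and APCDD1 lay below it (19.7%). The counting interval lay wholly above the median for 5 of the 10 (29.6% of all expressed genes) and wholly below it for 2 (30% of all expressed genes), and it held the median for NKD1, AXIN2 and NOTUM. It lay wholly past the upper 2-fold line for DKK1 (0.44% of all expressed genes) and past the lower one for 0 of the 10 (5.87%). These shares are not at like depth, and fewer reads give wider intervals. The 10 genes had medians of 1222.5 RNC-mRNA reads and 882 mRNA reads, against 280 and 258 for all expressed genes. The call of SP5 depends on where the centre is put: DKK1 alone was 2-fold above when genes had to average 5 RPKM or more, as were 0.677% of 9162 such genes.

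**Figure D1:**
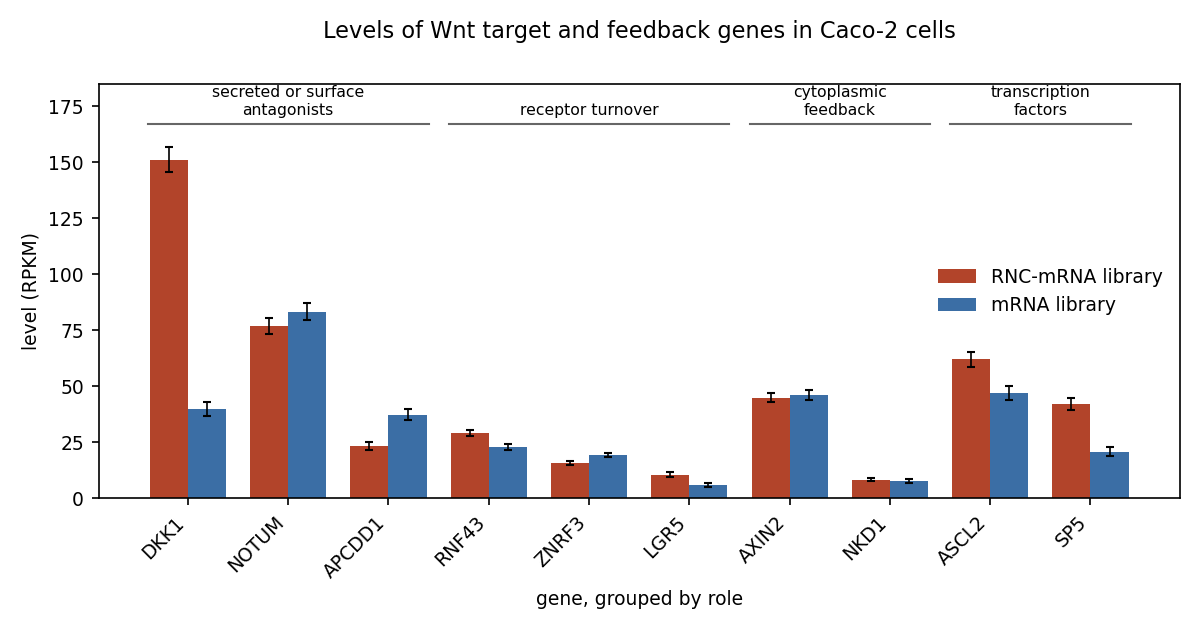
Level of each gene in RPKM in the RNC-mRNA library (red, left bar) and the mRNA library (blue, right bar), grouped by role, with 1 library each; error bars are exact Poisson 95% counting intervals. DKK1 stands out at 151 RPKM in the RNC-mRNA library against 39.8 RPKM in the mRNA library, while NOTUM and AXIN2 have nearly equal bars.

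Among the secreted and surface antagonists, DKK1 was higher in the RNC-mRNA library, NOTUM was near the median and APCDD1 was lower. DKK1, a secreted protein that binds LRP5 and LRP6 and blocks their use by Wnt, had 151 RPKM in the RNC-mRNA library and 39.8 RPKM in the mRNA library, on 3025 and 693 reads. Its ratio was 3.89-fold above the median gene (log2 1.96, interval 1.84 to 2.08), and 20 of the 13402 expressed genes, DKK1 included, had a ratio at least as high. DKK1 was the highest of the 10 genes in the RNC-mRNA library and stood behind NOTUM, ASCL2 and AXIN2 in the mRNA library.

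NOTUM, a secreted enzyme that removes the lipid from Wnt proteins, had 76.8 RPKM in the RNC-mRNA library and 83.3 RPKM in the mRNA library. Its relative ratio was -0.08 (interval -0.17 to 0.02), so it was not distinguished from the median gene at this depth. NOTUM was the highest of the 10 genes in the mRNA library and ranked next to DKK1 in the RNC-mRNA library. APCDD1, a membrane glycoprotein that inhibits Wnt at the cell surface, had 23.4 RPKM in the RNC-mRNA library and 37.5 RPKM in the mRNA library. Its ratio was 1.55-fold below the median gene (log2 -0.64, interval -0.79 to -0.49), and 18.2% of expressed genes had a ratio as low or lower.

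DKK1 and NOTUM changed places between the libraries, and APCDD1 had the lowest value of the antagonists in both. In the mRNA library the counting intervals of APCDD1 and DKK1 overlapped. The level of DKK1 was 1.97 times that of NOTUM in the RNC-mRNA library and 0.478 times in the mRNA library. It was 6.46 times that of APCDD1 in the RNC-mRNA library and 1.06 times in the mRNA library. Such a ratio within a library does not depend on how the libraries are scaled. The log2 ratio of DKK1 exceeded that of NOTUM by 2.04 (counting interval 1.89 to 2.20) and that of APCDD1 by 2.60 (2.41 to 2.79), and that of NOTUM exceeded that of APCDD1 by 0.56 (0.39 to 0.73). These are 3 of 8 pairs compared within roles.

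**Figure D2:**
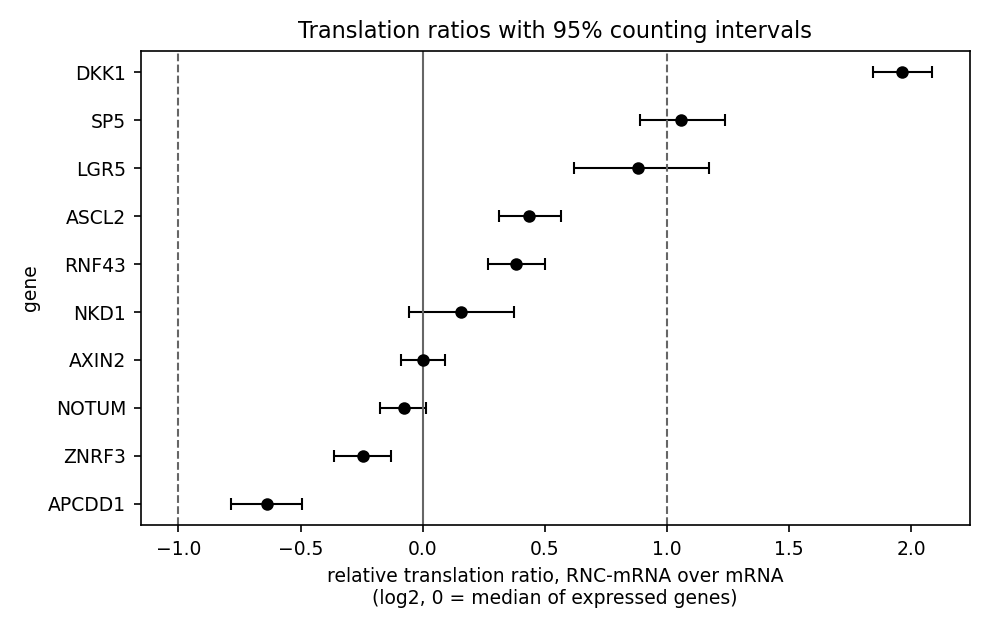
Relative translation ratio of each gene (log2, RNC-mRNA over mRNA, with 0 at the median of expressed genes) with its exact 95% counting interval; dashed lines mark 2-fold. The whole interval of DKK1 lies past the upper dashed line, and the intervals of SP5 (0.89 to 1.24) and LGR5 (0.62 to 1.17) cross it. The intervals of NKD1, AXIN2 and NOTUM cross 0.

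The receptor turnover genes also differed among themselves. LGR5, a receptor for R-spondins and a marker of crypt stem cells, had 10.6 RPKM in the RNC-mRNA library and 5.84 RPKM in the mRNA library. Its relative ratio was 0.88 (interval 0.62 to 1.17), short of the 2-fold line as a point value, and 2.04% of expressed genes had a ratio as high or higher. It had the widest interval of the 10, since it rested on the fewest reads.

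RNF43 and ZNRF3 are related transmembrane ubiquitin ligases that clear Frizzled receptors from the cell surface, and R-spondins acting through LGR proteins inhibit them. RNF43 had 29.1 RPKM in the RNC-mRNA library and 22.9 RPKM in the mRNA library (relative ratio 0.38, interval 0.27 to 0.50). ZNRF3 had 15.9 RPKM in the RNC-mRNA library and 19.3 RPKM in the mRNA library (relative ratio -0.25, interval -0.36 to -0.13). The 2 ligases thus lay on opposite sides of the median, with log2 ratios 0.63 apart (counting interval 0.47 to 0.80). The level of RNF43 was 1.84 times that of ZNRF3 in the RNC-mRNA library and 1.19 times in the mRNA library. The log2 ratio of LGR5 exceeded that of RNF43 by 0.50 (0.21 to 0.81) and that of ZNRF3 by 1.13 (0.84 to 1.44). The summed level of both ligases was 4.26 times that of LGR5 in the RNC-mRNA library and 7.24 times in the mRNA library.

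The cytoplasmic feedback genes lay close to the median. AXIN2, a scaffold of the destruction complex and a widely used reporter of canonical Wnt activity, had 44.9 RPKM in the RNC-mRNA library and 46.1 RPKM in the mRNA library, on 2106 and 1881 reads. Its relative ratio was 0.00 (interval -0.09 to 0.09), the narrowest interval of the 10. NKD1, which binds Dishevelled and dampens the signal, had 8.38 RPKM in the RNC-mRNA library and 7.71 RPKM in the mRNA library (relative ratio 0.16, interval -0.06 to 0.37). The log2 ratio of NKD1 exceeded that of AXIN2 by 0.16 with a counting interval of -0.07 to 0.39, so no difference between them was detectable at this depth.

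The transcription factors both lay above the median. SP5, a zinc-finger factor of the Sp family that is induced by Wnt and acts back on Wnt target genes, had 42.1 RPKM in the RNC-mRNA library and 20.7 RPKM in the mRNA library, on 909 and 389 reads. Its ratio was 2.08-fold above the median gene (log2 1.06, interval 0.89 to 1.24), and 1.16% of expressed genes had a ratio as high or higher. ASCL2, a basic helix-loop-helix factor of intestinal stem cells, had 62.1 RPKM in the RNC-mRNA library and 47.1 RPKM in the mRNA library (relative ratio 0.44, interval 0.31 to 0.56). The log2 ratio of SP5 exceeded that of ASCL2 by 0.62 (counting interval 0.41 to 0.84). ASCL2 remained the more abundant, at 1.47 times the level of SP5 in the RNC-mRNA library and 2.27 times in the mRNA library.

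**Figure D3:**
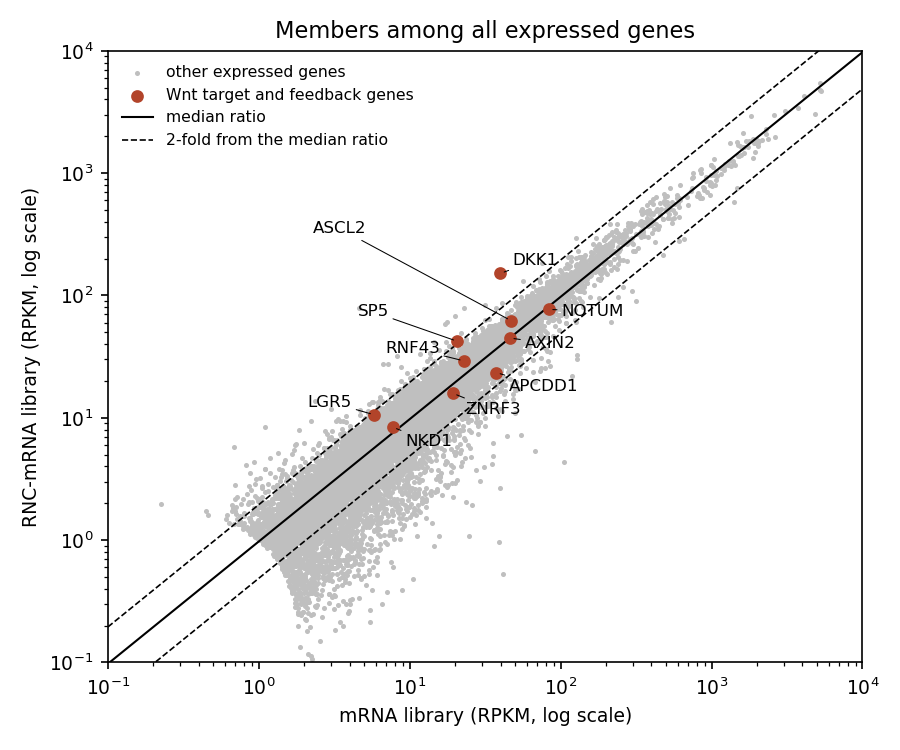
Level in the RNC-mRNA library against level in the mRNA library (RPKM, log scales) for expressed genes (grey) and the 10 genes (red), leaving out genes under 0.1 RPKM in either library; the solid line is the median ratio and dashed lines are 2-fold from it. DKK1 lies above the upper dashed line, SP5 just above it, and APCDD1 between the solid and the lower dashed line.

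The order of the levels shows where genes can be told apart. In the RNC-mRNA library the order was DKK1, NOTUM, ASCL2, AXIN2, SP5, RNF43, APCDD1, ZNRF3, LGR5 and NKD1, and of neighbours in it the counting intervals overlapped for AXIN2 and SP5 alone. In the mRNA library it was NOTUM, ASCL2, AXIN2, DKK1, APCDD1, RNF43, SP5, ZNRF3, NKD1 and LGR5, where the intervals overlapped for ASCL2 and AXIN2, DKK1 and APCDD1, RNF43 and SP5, and SP5 and ZNRF3. In the order of relative ratios, the intervals did not overlap between DKK1 and SP5, between LGR5 and ASCL2 or between ZNRF3 and APCDD1, and each other neighbouring pair overlapped.

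DKK1 carried most of the difference in the summed level. The 10 genes summed to 464.5 RPKM in the RNC-mRNA library and 330.3 RPKM in the mRNA library, and without DKK1 to 313.3 and 290.5 RPKM. DKK1 made up 32.6% of the sum in the RNC-mRNA library and 12.1% in the mRNA library, and NOTUM 16.5% in the RNC-mRNA library and 25.2% in the mRNA library. By role, the antagonists summed to 251.5 RPKM in the RNC-mRNA library and 160.6 RPKM in the mRNA library, and the transcription factors to 104.2 and 67.8 RPKM. The receptor turnover genes summed to 55.6 RPKM in the RNC-mRNA library and 48.1 RPKM in the mRNA library, and the cytoplasmic genes to 53.3 and 53.8 RPKM.

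The Spearman correlation coefficient between mRNA level and relative ratio was -0.14 over the 10 genes and 0.18 over 13399 expressed genes. The records of DKK1, SP5 and LGR5, with the highest ratios, came out at 1805, 1947 and 2879 nucleotides, and those of ZNRF3 and APCDD1, with the lowest, at 6677 and 2562, beside a median of 2519 over all expressed genes. These lengths, and that median, are the shortest that give whole reads in both libraries. They are lower bounds and can fall below the length of the transcript. The Spearman coefficient between this length and relative ratio was -0.54 over the 10 genes and 0.01 over all. ASCL2, at 1849 nucleotides, and NOTUM, at 2217, were also below that median length and had lower ratios than LGR5. These are descriptions across genes that share both libraries, and a part of length in the ratios was not tested.

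The expressed protein-coding genes closest to each gene in both log2 levels were as follows. For DKK1 the nearest was the hypoxia factor EPAS1, with 131 RPKM in the RNC-mRNA library and 56.3 RPKM in the mRNA library, at a log2 distance of 0.54. That was the largest distance to a nearest gene among the 10. The nearest to SP5 were the desmosomal PKP2 (distance 0.05), the antiproliferative gene BTG2 (0.06) and KIAA1161 (0.09), with relative ratios of 1.12, 1.11 and 1.11. The nearest to LGR5 was CYB5R2 (0.05), to APCDD1 the proliferation marker MKI67 (0.04), to AXIN2 GM2A (0.02) and to ASCL2 C11orf24 (0.02). The nearest to NOTUM was RBBP7 (0.02), to ZNRF3 TYK2 (0.02), to NKD1 SFT2D3 (0.01) and to RNF43 CAMK2N1 (0.01).

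Other Wnt target genes also lay mostly above the median of all expressed genes, which is 0.12 below that of genes averaging 10 RPKM or more. Of 45 listed, 38 were expressed, 29 lay above the median and 9 below, with a median relative ratio of 0.32, beside 0 for all expressed genes. At least 2-fold above were the AP-1 subunit JUN, with 13.8 RPKM in the RNC-mRNA library and 2.34 RPKM in the mRNA library (2.55, interval 2.25 to 2.97), and the hyaluronan receptor CD44, with 7.04 and 3.53 RPKM (1.01, interval 0.79 to 1.28). JUN is also an immediate early gene with inputs besides Wnt. NKD2, the paralog of NKD1, was the lowest, with 3.92 RPKM in the RNC-mRNA library and 12.0 RPKM in the mRNA library (-1.55, interval -1.94 to -1.22). The most abundant were the growth factor BMP4 (0.16) and the intestinal homeobox factor CDX2 (0.18). Intestinal stem cell markers, several of which are also in that list, had 12 of 15 expressed, 9 above the median and 3 below, with a median of 0.57 and 0 past 2-fold in either direction. SOX9, a progenitor transcription factor, was their highest, with 27.3 RPKM in the RNC-mRNA library and 16.6 RPKM in the mRNA library (0.76), TERT was their lowest (-0.52), and TNFRSF19 (0.67) and EPHB2 (0.56) were the most abundant.

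Extracellular antagonists outside the 10 lay on both sides of the median. Of 21 listed, 10 were expressed, 4 above and 6 below the median, with a median of -0.14. DKK3, a divergent member of the Dickkopf family, was the highest and most abundant, with 63.8 RPKM in the RNC-mRNA library and 33.4 RPKM in the mRNA library (0.97, interval 0.86 to 1.09). The Dickkopf co-receptor gene KREMEN2, with 9.69 RPKM in the RNC-mRNA library and 20.02 RPKM in the mRNA library (-1.0, interval -1.25 to -0.77), and SOST (-1.28, interval -2.81 to -0.15, on 8 RNC-mRNA reads and 19 mRNA reads) were at least 2-fold below. IGFBP4 was also abundant (-0.17).

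The upstream machinery had medians slightly above that of all expressed genes. The median of genes averaging 10 RPKM or more was itself 0.12 above it, and the lists were not compared with genes of like level. The receptor turnover list outside the 10 had 13 of 22 genes expressed, 10 above and 3 below, with a median of 0.23. FZD5 was highest (0.58), the co-receptor LRP5 was abundant (0.19), and FZD10 was 2-fold below, with 2.28 RPKM in the RNC-mRNA library and 5.63 RPKM in the mRNA library (-1.23, interval -1.66 to -0.88). The destruction complex and nuclear effectors had 34 of 35 expressed, 24 above and 10 below, with a median of 0.12. PYGO1 was the only one past 2-fold, at 1.29 on 14 RNC-mRNA reads and 5 mRNA reads, with an interval of -0.23 to 3.15. DVL1 was lowest (-0.23), and the abundant BCL9L (-0.01) and DVL3 (0.01) were at the median. Wnt ligands and their secretion genes had 10 of 21 expressed, 8 above and 2 below, with a median of 0.23, from WNT10B (-0.61, interval -1.17 to -0.11) to WNT3 (0.62, interval -1.33 to 2.86, on 7 RNC-mRNA reads and 4 mRNA reads), with WLS (0.41) and WNT6 (-0.04) the most abundant.

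Paralogs did not take one side. Of 23 listed, 12 were expressed, 7 above and 5 below, with a median of 0.06. AXIN1, the constitutive Axin, had 15.01 RPKM in the RNC-mRNA library and 16.6 RPKM in the mRNA library (-0.10), close to AXIN2. LGR4 had 13.4 RPKM in the RNC-mRNA library and 10.8 RPKM in the mRNA library (0.34), SP6 was the most abundant (105 and 114 RPKM, -0.08), and DKK3 and NKD2 were the highest and the lowest. AXIN1 and LGR4 were picked out after their values were seen.

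**Figure D4:**
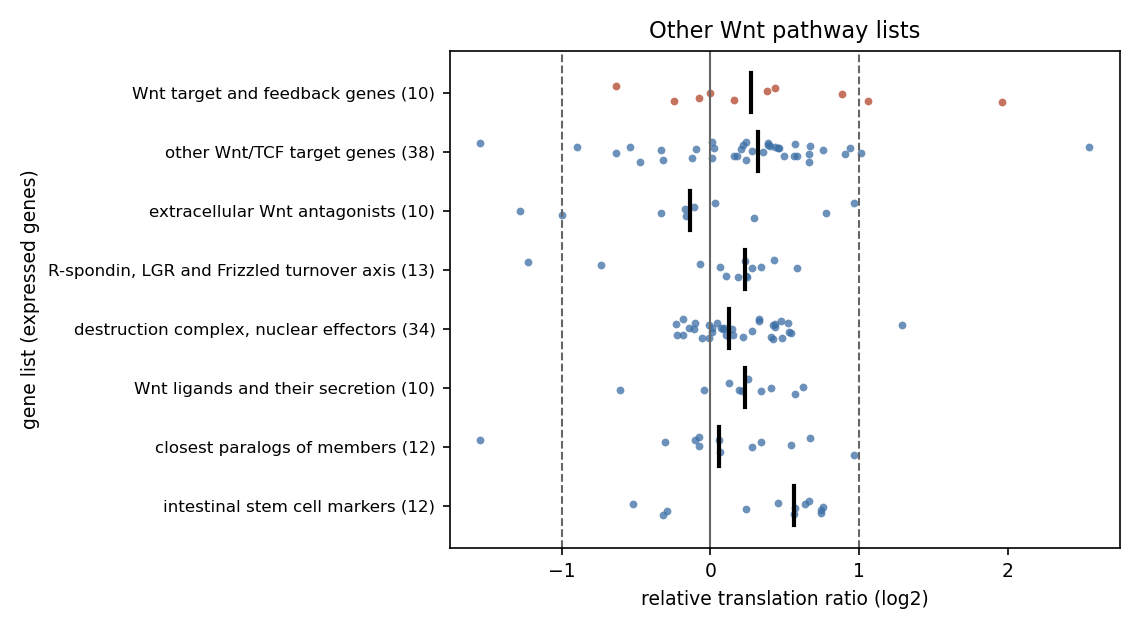
Relative translation ratio (log2) of each expressed gene (points) in the 10 genes (red) and in 7 other Wnt-related lists (blue), with black bars at the medians, dashed lines at 2-fold and the number of expressed genes in brackets; some genes are in several lists. The median bars run from -0.14 for extracellular antagonists to 0.57 for stem cell markers, with the 10 genes at 0.27.

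The labelled cell type was checked against its markers. Of 12 genes of colonic epithelium and Caco-2 cells, 11 were expressed, 6 with a ratio above the median and 5 below it. KRT8 had 1693 RPKM in the RNC-mRNA library and 1490 RPKM in the mRNA library, and VIL1 116 and 109 RPKM. APOA1 had 1322 and 1874 RPKM (relative ratio -0.46). The relative ratios ran from FABP1 (-0.56) to CDX1 (0.24). KRT20, which was not expressed by the filter, had 0.05 and 0.977 RPKM. The leukocyte gene PTPRC had 0.0332 RPKM in the RNC-mRNA library and 0.363 RPKM in the mRNA library, while 3 of the 6 immune markers, CD14, CD68 and LYZ, were expressed. The 4 endothelial markers summed to 2.07 RPKM in the RNC-mRNA library and 4.93 RPKM in the mRNA library. Of these, 1 was expressed, PECAM1, with 1.58 and 4.12 RPKM (relative ratio -1.29, interval -1.75 to -0.95). Fibroblast markers were expressed in 7 of 8 cases and summed to 60.5 RPKM in the RNC-mRNA library and 84.0 RPKM in the mRNA library. Of the 7, 4 had a ratio above the median and 3 below it. The counting interval held the median for DCN and PDGFRB above it and for COL3A1 below it. COL1A1 had 26.1 RPKM in the RNC-mRNA library and 46.8 RPKM in the mRNA library, PDGFRA 3.72 and 1.42 RPKM (relative ratio 1.37), and THY1 0.0376 and 0 RPKM. The part of such genes in the ratios above was not tested. In bulk RNA, fewer cells of a type and less RNA per cell cannot be told apart.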

How the data were processed

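The deposited table holds RPKM for each gene in each of 2 libraries, computed by the authors, per the file headers. The build was hg19, per the submitters' processing notes. The aligner, the counting method and any use of strand are not given in the sources used here. Library totals were taken as the smallest whole number at which close to the largest number of records of known length (GENCODE release 29) held whole reads. A multiple of a total gives the same whole reads, so the totals are fixed only up to a multiple. At the totals taken, 1287 of 6853 records held whole reads for RNC-mRNA and 1402 of 6907 for mRNA. At the next best total, leaving out multiples of the one taken, 579 and 608 did. For each gene the fewest reads that give both RPKM values were then found, within the rounding of 7 digits and a relative error of 2e-07. These reads, and the lengths that go with them, are lower bounds. Intervals are exact Clopper-Pearson (ratios), conditional odds ratio (pairs) and Poisson (levels), at 95%. PCR copies are not independent molecules. The recovery was tested on simulated data.

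With 1 library per group, at least 2-fold from the median of expressed genes was used as a rule of size. The genes, lists and alternatives were chosen with earlier results of these data known. From each list, the rule names the 2 most abundant genes, the highest, the lowest and those past 2-fold, and for each of the 10 genes the 3 nearest, of which some are printed. Coordinates of promoter windows are on GRCh38.p14, from RefSeq. Software was Python 3.11.15, NumPy 2.4.6, pandas 2.3.3, SciPy 1.17.1, numba 0.67.0 and matplotlib 3.10.9.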

Additional observations from a re-analysis of the deposited data

How the results depend on the processing

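Under 9 other settings of pseudocount, filter and centring, and with each gene left out in turn, the median relative ratio of the 10 genes stayed above 0, between 0.15 and 0.38. With genes averaging 5 RPKM or more, and when centred on genes averaging 10 RPKM or more, 1 gene (DKK1) was at least 2-fold above the median in place of 2, and the same held when the counting interval had to lie wholly past the line. These centres lie 0.08 and 0.12 above the one used, on the log2 scale. With no filter the centre moved by -0.10. At a line of 1.5-fold, 3 genes were above and 1 (APCDD1) below, against 7.44% and 19.7% of all expressed genes. Of 90 values of single genes, 83 kept their sign and the other 7 were of AXIN2 or NOTUM. No paired analysis was possible because each group has 1 library. Depth limits LGR5 and NKD1 most.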
